A study of Mus musculus with 6 samples.

Results

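The hypoxia response and glycolysis genes are 37 genes, chosen by symbol from a list drawn up with earlier results of these data known. They were found among the 23859 genes named on the array through 63 of its 55681 probes. They form 2 groups. The 20 genes of glucose use encode glucose and lactate transporters, the enzymes that turn glucose into lactate, and regulators of that route. The other 17 genes are further targets of the hypoxia response, such as Vegfa, Bnip3, Car9 and Egln3, together with Hif1a itself. A total of 32 members could be tested, since in some genotype both of its arrays measured the gene's probe well above background; 29 of these were above background on all 6 arrays. The members not tested were Hif1a, Egln1, Adm, Ero1l and Mxi1.

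Cells with too little oxygen stabilise the alpha subunits of the hypoxia-inducible factors, which pair with Arnt and bind a short DNA element in their target genes. In normal oxygen the prolyl hydroxylases of the Egln family mark the alpha subunit for destruction, so the pathway is controlled largely at the protein level and is read through its target transcripts. Many of those targets raise glucose uptake, glycolysis and lactate export, and others act on blood vessel growth, pH and the removal of mitochondria. In the pancreas, acinar cells make and secrete digestive enzymes, and Spink3 encodes the trypsin inhibitor that they release with them.

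The whole pancreas was taken from C57BL/6N mice on postnatal day 0.5, and each of 3 genotypes was hybridised to 2 arrays. Spink3+/+ was the wild type control. By the series' description, every acinar cell of the Spink3-/- pancreas is affected by a nonapoptotic death with autophagy, while Spink3-/-XKI/+ keeps a large share of normal acinar cells beside dying ones. The labels do not say what the XKI allele is, nor whether the arrays of a genotype came from separate animals, so the p-values reflect no more than the scatter among these samples, and that scatter may be technical. In bulk samples such as these, fewer cells of a type and less RNA per cell cannot be told apart.

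The 6 arrays lay on 1 slide, and correlations between them over tested probes ran from 0.971 to 0.984. Between 42.4% and 50.8% of spots were well above background and no spot was saturated. The number of arrays limits the precision. The targeted gene Spink3 fell by 6.95 (log2) in Spink3-/- against Spink3+/+, with a limma adjusted p of 0.001, and in Spink3-/-XKI/+ it fell by 7.56, with a limma adjusted p of 0.000599. The arrays lay in 2 rows of the slide: the first row held both Spink3+/+ arrays and replicate 1 of Spink3-/-, and the second held replicate 2 of Spink3-/- and both Spink3-/-XKI/+ arrays. Genotype and slide row therefore cannot be told apart between Spink3-/-XKI/+ and Spink3+/+ other than through the Spink3-/- arrays. The defining markers of acinar cells, Amy2a5 and Cpa1, were above background on all 6 arrays.

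Most of the measured members had their highest mean in Spink3-/-. For the lactate-forming enzyme Ldha, the mitochondrial protein Bnip3 and the carbonic anhydrase Car9, the lowest mean was that of Spink3-/-XKI/+. Levels below are log2 processed signals relative to the array's 75th percentile, and a difference of 1 is a doubling. The members tested had brighter signals than most genes tested, at a median percentile of 75.8. The shares over all genes given below were not computed among genes of like brightness. In Spink3-/- against Spink3-/-XKI/+, both arrays of Spink3-/- lay above both of the other genotype in 18 of 32 members (56.2%), where 13.1% of the 14029 genes tested did so. They lay below in 1 member, Pfkm, where 21.5% of genes did. All 18 were among the 29 members measured on every array. With a log2 difference of 0.5 or more as well, there were 11 members above, beside 3.66% of genes, and 1 below, beside 6.78%. The mean was higher in Spink3-/- for 23 of 32 members, beside 42.7% of genes. The median log2 difference was 0.30 over the members and -0.04 over all genes tested. Because the members were chosen with earlier results of these data known, their excess over all genes is not independent of the data.

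No single member passed the test in any of the 3 comparisons. In Spink3-/- against Spink3+/+, limma with Benjamini-Hochberg adjustment over all genes called 5 of 14029 genes (0.0356%) and 0 members, the lowest adjusted p of a member being 0.866. At an unadjusted limma p under 0.05 there were 3 members of 32, beside 5.03% of all genes. For Spink3-/-XKI/+ against Spink3+/+, 0.00713% of genes and 0 members were called; the lowest adjusted p of a member was 0.604, and 2 members lay under an unadjusted limma p of 0.05, beside 7.61% of genes. For Spink3-/- against Spink3-/-XKI/+, 0.00713% of genes and 0 members were called. There the lowest adjusted p was 0.521, for Bnip3, and 8 members lay under an unadjusted limma p of 0.05, beside 7.26% of genes. The word called is used below only for an adjusted p under 0.05, and differences are given as measured values with their standard error (SE) from limma and 2 arrays per genotype.

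Against Spink3+/+, the Spink3-/- arrays lay above both control arrays in 13 of 32 members (40.6%), beside 16.1% of all genes, and below both in 3 (Pfkm, Pdk1 and Bnip3l), beside 16.6%. With a log2 difference of 0.5 or more as well, 5 members lay above, beside 4.43% of genes, and 0 below, beside 4.02%. The mean was higher for 25 of 32 members, beside 48.9% of genes, and the median was 0.27, beside -0.01 over all genes. That median was 0.11 without Spink3+/+ replicate 1, with 21 of 32 means higher, beside 46.8% of genes. It was 0.43 without Spink3+/+ replicate 2 and 0.18 without Spink3-/- replicate 2. The arrays of Spink3-/-XKI/+ lay above both Spink3+/+ arrays in 3 members (Pfkm, Gapdh and Ddit4), beside 26% of genes, and below both in 6 (Hk2, Aldoc, Bnip3, Car9, P4ha2 and Higd1a), beside 16.2%. With a log2 difference of 0.5 or more as well, 0 members lay above, beside 7.46% of genes, and 2 below (Hk2 and Bnip3), beside 4.12%. The mean was higher for 15 of 32 members, beside 56.3% of genes, and the median there was -0.05, beside 0.04. Without Spink3+/+ replicate 2 it was 0.09. By group, that median was 0.06 over the 20 members of glucose use and -0.29 over the 12 other hypoxia targets tested. The latter was -0.02 with slide row as a block. These comparisons share arrays pairwise, so their values are not independent of each other. Over the 3 genotypes, Spink3-/- had the highest mean in 22 of 32 members (68.8%), beside 27.1% of all genes.

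**Figure D1:**
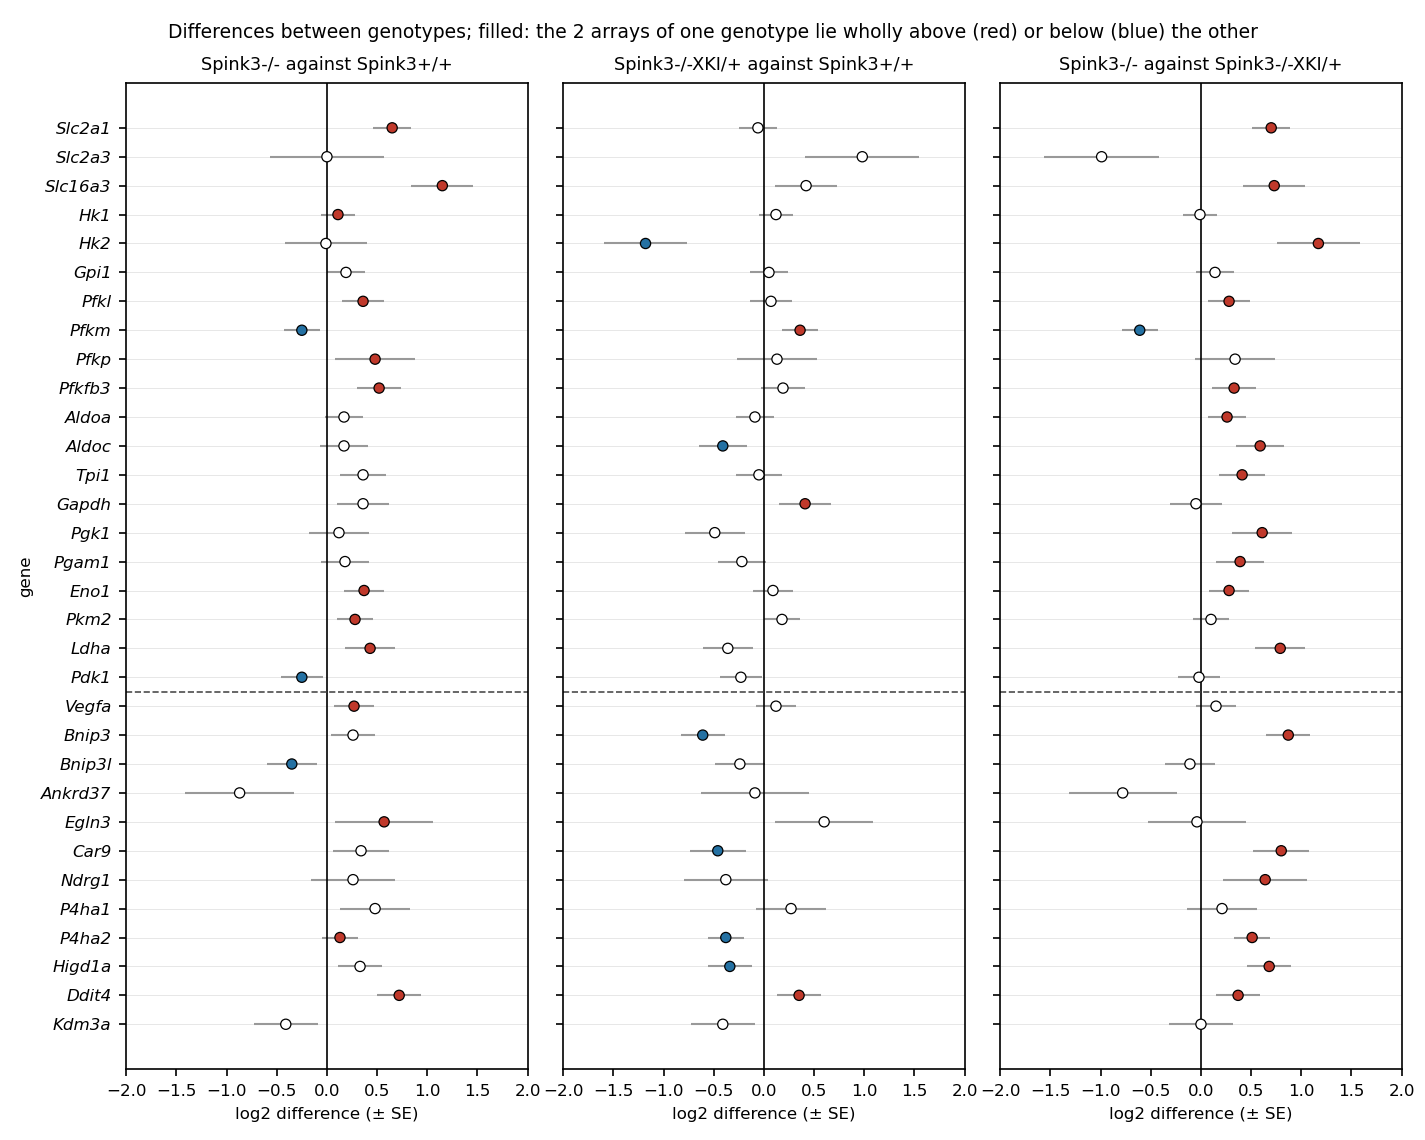
Log2 difference of each measured gene in the 3 comparisons, with bars of 1 SE from limma (2 arrays per genotype); a filled point marks genotypes whose arrays do not overlap. The right panel holds 18 red points and 1 blue point, the left panel 13 and 3, and the middle panel 3 and 6.

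Within the slide rows the members showed the same side. In the first row, replicate 1 of Spink3-/- was above the mean of Spink3+/+ in 26 of 32 members, beside 45.2% of genes. The median was 0.18, beside -0.03 over all genes. In the second row, replicate 2 of Spink3-/- was above the mean of Spink3-/-XKI/+ in 27 of 32, beside 47.6% of genes, with a median of 0.30 beside -0.02. Each rests on 1 array of Spink3-/-; limma with slide row as a block, which takes the same contrasts, called no member. The scaling moved some of the counts. With quantile normalization or median centring, 18 and 19 members had Spink3-/- wholly above Spink3-/-XKI/+, each beside 14% of genes. With normexp background correction there were 19, beside 12.1%. In each of these settings 1 member lay wholly below, beside 20.7% to 21.2% of genes. Against Spink3+/+, quantile normalization and median centring gave 11 and 10 members wholly above in place of 13, beside 15.5% and 12.1%. Centred on the spike-in spots, 12 members in place of 18 had Spink3-/- wholly above Spink3-/-XKI/+, beside 7.58% of genes. Against Spink3+/+, 14 members then had Spink3-/- wholly above, beside 19.6%, and 0 wholly below, beside 6.1%. For Spink3-/-XKI/+ against Spink3+/+ the balance turned, with 7 members above, beside 33.2%, and 3 below, beside 6.47%.

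**Figure D2:**
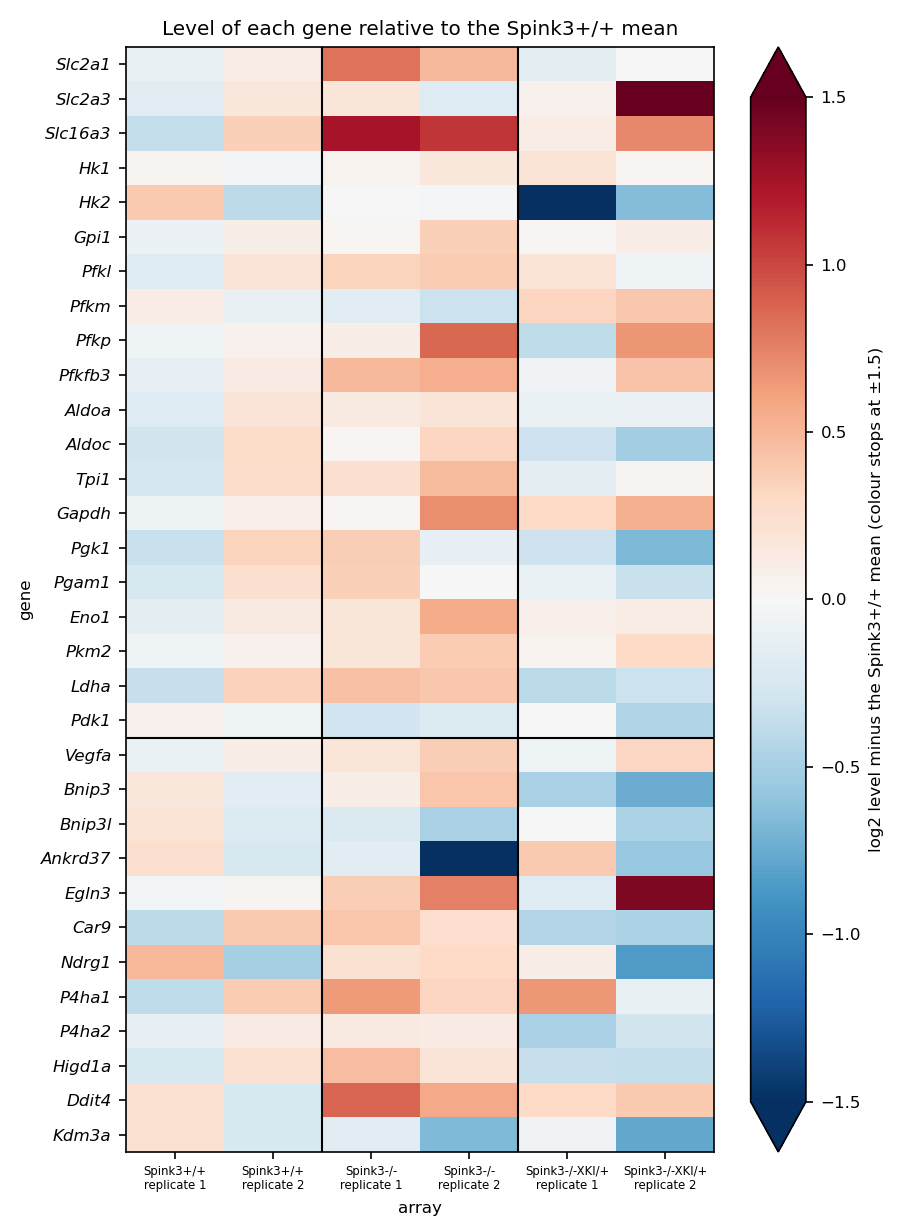
Level of each measured gene on each array minus the mean of the Spink3+/+ arrays, in log2 units; genes of glucose use lie above the line and other hypoxia targets below it. Red predominates in the columns of Spink3-/-, while Spink3-/-XKI/+ replicate 2 departs upwards for Slc2a3 and Egln3 and downwards for Ndrg1 and Kdm3a, and both Spink3-/-XKI/+ arrays are blue for Hk2.

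The promoters of the members are shown because many targets of hypoxia-inducible factors carry the factor's core element near their start. RefSeq promoter windows (build GRCm38.p6) were found for 34 of the 37 genes, and none was in the table for Slc2a3, Bnip3l and Ndrg1. The letters searched were ACGTG and GCGTG on either strand, whose reverse complements read CACGT and CACGC; the palindrome CACGTG counts as 2 overlapping matches. In the 250 bases before the start of a gene's first window, 27 of 34 members (79.4%) held at least 1 core, beside 38.6% of the 27025 genes in the table. ACGTG was present in 52.9% of members beside 16.6% of genes, and GCGTG in 52.9% beside 28.2%. The members' windows were also richer in G and C, with a median of 63.4% beside 52%, and both letters make up most of these motifs. Stretches of 100 bases are shown for 6 members that lay wholly above Spink3-/-XKI/+ in Spink3-/-, picked after their values were seen. Each was chosen to hold the most cores, within the gene's window that holds the most, so it is not typical of the promoter. They read as follows on the gene's strand, with the cores in capitals.
Slc2a1, chr4:119108645-119108744, plus strand: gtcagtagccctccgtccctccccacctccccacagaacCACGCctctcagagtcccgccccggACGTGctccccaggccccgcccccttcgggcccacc
Slc16a3, chr11:120948967-120949066, plus strand: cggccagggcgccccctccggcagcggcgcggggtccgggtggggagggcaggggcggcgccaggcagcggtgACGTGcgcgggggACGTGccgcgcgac
Ldha, chr7:46845704-46845803, plus strand: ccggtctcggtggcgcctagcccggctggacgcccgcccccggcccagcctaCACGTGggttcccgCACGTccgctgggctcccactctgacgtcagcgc
Pgk1, chrX:106186950-106187049, plus strand: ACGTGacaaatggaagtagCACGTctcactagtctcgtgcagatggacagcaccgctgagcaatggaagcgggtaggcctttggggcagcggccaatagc
Bnip3, chr7:138909524-138909623, minus strand: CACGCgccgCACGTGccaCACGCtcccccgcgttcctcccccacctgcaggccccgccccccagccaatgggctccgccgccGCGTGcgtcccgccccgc
Car9, chr4:43506926-43507025, plus strand: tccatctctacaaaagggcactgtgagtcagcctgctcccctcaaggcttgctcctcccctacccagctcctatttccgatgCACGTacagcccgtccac
The Slc16a3 stretch holds ACGTG at 2 places close to the start, and that of Ldha holds the palindrome CACGTG and a further core. The Bnip3 stretch holds 5 matches and the Car9 stretch 1, close to its start. Of the 18 members that lay wholly above Spink3-/-XKI/+, 17 had a window and 15 of those held a core in the first window (88.2%). Of the other 14 tested, 12 had a window and 8 held a core in the first (66.7%). The gap depends on that choice of window. Of those without a core there, Aldoa of the 18 held one in another window, as did Hk1, Pkm2 and Vegfa of the 14. A match is a description of letters and says nothing of binding in these samples.

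Among the transporters, Slc2a1 and Slc16a3 were higher in Spink3-/- than in either other genotype. Slc2a1, the widespread glucose carrier of the plasma membrane, stood at 0.25 and 0.47 in Spink3+/+, 1.17 and 0.85 in Spink3-/-, and 0.23 and 0.37 in Spink3-/-XKI/+. Spink3-/- lay above the others with no overlap, while Spink3+/+ and Spink3-/-XKI/+ overlapped. The log2 difference from Spink3+/+ was 0.65 (SE 0.19, n = 2 per genotype, 1.57-fold; 95% interval 0.18 to 1.12), and that from Spink3-/-XKI/+ was 0.70 (SE 0.19). Between Spink3-/-XKI/+ and Spink3+/+ it was -0.06, with a 95% interval from -0.53 to 0.42.

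Slc16a3, which exports lactate from cells that rely on glycolysis, stood at 0.69 and 1.40 in Spink3+/+, 2.28 and 2.12 in Spink3-/-, and 1.16 and 1.77 in Spink3-/-XKI/+. The Spink3-/- arrays were again the highest, and the other genotypes overlapped. Against Spink3+/+ the difference was 1.15 (SE 0.31, 2.23-fold, 95% interval 0.39 to 1.91), with an unadjusted limma p of 0.00976, the lowest among the members in that comparison. Against Spink3-/-XKI/+ it was 0.73 (SE 0.31). A second probe gave 1.17 and 0.61, but it is hardly a separate measurement: the probes share a run of 53 of 60 bases, at chr11:120820030-120820089 and chr11:120820023-120820082 (mm9, the build named in the file headers). Their first 30 bases show that overlap, with the shared run in capitals.
Slc16a3 brightest probe: GTGGTCTGTTCACCCTGAGTCCCACCCTTT
Slc16a3 second probe: ctgggcaGTGGTCTGTTCACCCTGAGTCCC
Slc2a3, a high-affinity glucose carrier, was close to background, at -2.27 and -1.94 in Spink3+/+, -1.92 and -2.30 in Spink3-/-, and -2.04 and -0.20 in Spink3-/-XKI/+. Replicate 2 of Spink3-/-XKI/+ alone stood apart, and the gene was tested only because both arrays of that genotype were above background. Its difference of 0.98 from Spink3+/+ had an SE of 0.57.

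The hexokinases and phosphofructokinases, which commit glucose to the cell and to glycolysis, had no common direction. Hk2, the hexokinase induced by hypoxia and insulin, stood at 0.24 and -0.55 in Spink3+/+, -0.16 and -0.18 in Spink3-/-, and -1.88 and -0.81 in Spink3-/-XKI/+. Spink3-/-XKI/+ was lowest, with no overlap with either other genotype, and the Spink3-/- arrays lay between the Spink3+/+ arrays. The difference of Spink3-/-XKI/+ from Spink3+/+ was -1.18 (SE 0.41) and that of Spink3-/- from Spink3-/-XKI/+ was 1.17 (SE 0.41, 2.25-fold). The latter was 0.64 without Spink3-/-XKI/+ replicate 1, 1.71 without replicate 2 and 0.67 with normexp background correction. Hk1, the hexokinase of most tissues, is uncertain: its brightest probe is annotated to chromosome 5, whereas the gene lies on chromosome 10. That probe differed by 0.11 between Spink3-/- and Spink3+/+ and by -0.01 between Spink3-/- and Spink3-/-XKI/+ (SE 0.17), and a dimmer probe on chromosome 10 gave -0.01 and -0.26.

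Pfkm, the phosphofructokinase isoform typical of muscle, was the only member whose Spink3-/- arrays lay wholly below those of Spink3-/-XKI/+. Its levels were 1.24 and 1.01 in Spink3+/+, 0.95 and 0.80 in Spink3-/-, and 1.45 and 1.53 in Spink3-/-XKI/+. Spink3-/-XKI/+ was highest and Spink3-/- lowest, with no overlap between any genotypes. The difference of Spink3-/- from Spink3-/-XKI/+ was -0.61 (SE 0.18, 95% interval -1.04 to -0.19). Over 7 measured markers of striated muscle the summed level, in units of the 75th percentile, ran from 4.25 to 5.72 in Spink3+/+, 6.21 to 7.09 in Spink3-/- and 5.98 to 11.4 in Spink3-/-XKI/+, with Ckm above background on 2 arrays only; its part in the result was not tested. The isoforms Pfkl (liver type) and Pfkp (platelet type) differed by 0.36 (SE 0.21) and 0.48 (SE 0.40) between Spink3-/- and Spink3+/+, without overlap in either.

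Pfkfb3, whose product makes the activator fructose 2,6-bisphosphate and so speeds phosphofructokinase, stood at 0.69 and 0.93 in Spink3+/+, 1.30 and 1.36 in Spink3-/-, and 0.76 and 1.24 in Spink3-/-XKI/+. The Spink3-/- arrays were highest, and the other genotypes overlapped. The difference from Spink3+/+ was 0.52 (SE 0.22) and that from Spink3-/-XKI/+ was 0.33 (SE 0.22); a second, dim probe gave 0.75 and 0.80. Pdk1, which limits the use of pyruvate in the mitochondria, was lower in Spink3-/- than in Spink3+/+ (log2 difference -0.25, SE 0.21). For this gene Spink3-/- did not differ from Spink3-/-XKI/+ beyond the SE (-0.02, SE 0.21).

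**Figure D3:**
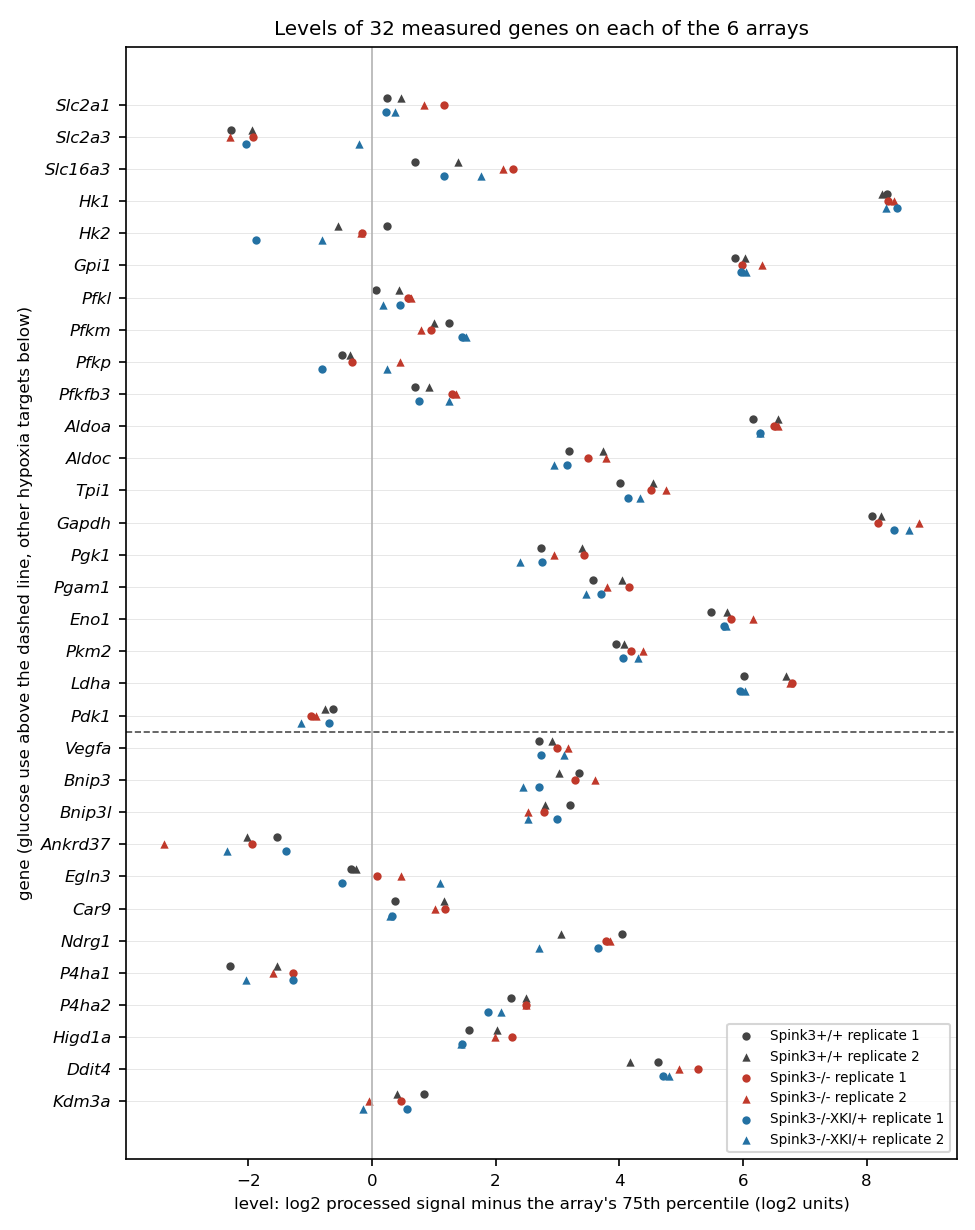
Level of each of the 32 measured genes on each of the 6 arrays, in log2 units relative to the array's 75th percentile, with replicate 1 as circles and replicate 2 as triangles. Levels of different genes come from different probes and are not comparable; within a row, the Spink3-/- symbols of Slc2a1, Slc16a3, Ldha and Ddit4 lie to the right of all others.

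Of the enzymes in the middle of the route, the aldolases and triose phosphate isomerase were higher in Spink3-/- than in Spink3-/-XKI/+. Aldoc, the aldolase known from brain, stood at 3.19 and 3.74 in Spink3+/+, 3.49 and 3.79 in Spink3-/-, and 3.16 and 2.95 in Spink3-/-XKI/+. Spink3-/-XKI/+ was lowest and overlapped with neither, while the other 2 genotypes overlapped. The difference of Spink3-/- from Spink3-/-XKI/+ was 0.59 (SE 0.24). For Aldoa, the general aldolase, it was 0.26 (SE 0.19), and for Tpi1 it was 0.41 (SE 0.23), with a second Tpi1 probe at 0.59. Gpi1, the isomerase after hexokinase, had 3 probes with 0.14 to 0.15 and overlapping arrays in this comparison, which share 40 to 47 bases pairwise.

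The 6 enzymes of the later part of the route, from Gapdh to Ldha, all had a higher mean in Spink3-/- than in Spink3+/+. The differences ran from 0.12 to 0.43, with SEs from 0.18 to 0.30. Without Spink3+/+ replicate 1, Pgk1 stood at -0.22 and Pgam1 at -0.06; without Spink3-/- replicate 1, Pgk1 stood at -0.13 in that comparison. Ldha, which turns pyruvate into lactate, stood at 6.01 and 6.70 in Spink3+/+, 6.80 and 6.76 in Spink3-/-, and 5.95 and 6.03 in Spink3-/-XKI/+. The Spink3-/- arrays were the highest, but replicate 2 of Spink3+/+ lay close below them and replicate 1 lay with Spink3-/-XKI/+. The difference from Spink3-/-XKI/+ was 0.79 (SE 0.25, 1.73-fold, 95% interval 0.18 to 1.40) and that from Spink3+/+ was 0.43 (SE 0.25). Without Spink3+/+ replicate 1 the latter was 0.08. Ldha was measured by 3 probes on chromosome 7 (mm9), at chr7:54110937-54110996, chr7:54103010-54103069 and chr7:54107294-54107353, whose first 30 bases are given to show that they are different sequences.
Ldha brightest probe: tgcatatggatgatggaaccaaccacccaa
Ldha second probe: gctgattgtgaatcttcttaaggaagagca
Ldha dimmest probe: cttaacccagaactgggcactgacgcagac
Against Spink3-/-XKI/+ these probes gave 0.79, 0.70 and 0.73, so the size of that gap was similar at each. Against Spink3+/+ they gave 0.43, 0.71 and 0.15.

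Pgk1, the first enzyme of glycolysis that yields ATP, stood at 2.73 and 3.40 in Spink3+/+, 3.43 and 2.94 in Spink3-/-, and 2.75 and 2.39 in Spink3-/-XKI/+. Spink3-/- overlapped with Spink3+/+ and lay above Spink3-/-XKI/+ by 0.61 (SE 0.30). Its only probe is annotated to chromosome 3, although the gene lies on X, so which locus gives the signal is uncertain. The same holds for Eno1, whose probe is annotated to chromosome 2 and not to chromosome 4; it differed by 0.37 from Spink3+/+ and by 0.28 from Spink3-/-XKI/+ (SE 0.20), without overlap in either.

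Gapdh showed how far probes of a gene can part. Its brightest probe stood at 8.08 and 8.23 in Spink3+/+, 8.19 and 8.85 in Spink3-/-, and 8.45 and 8.69 in Spink3-/-XKI/+. Spink3-/- overlapped with both others there, and the difference from Spink3-/-XKI/+ was -0.05 (SE 0.26). The other 7 probes gave 0.18 to 0.35 in the same comparison, each without overlap, but 3 of these are annotated to chromosomes X, 7 and 8 and not to chromosome 6. Pgam1 and Pkm2, which act between Pgk1 and Ldha, differed from Spink3-/-XKI/+ by 0.39 (SE 0.24) and 0.10 (SE 0.18); Pkm2 is named here as on the array and is Pkm in current lists.

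**Figure D4:**
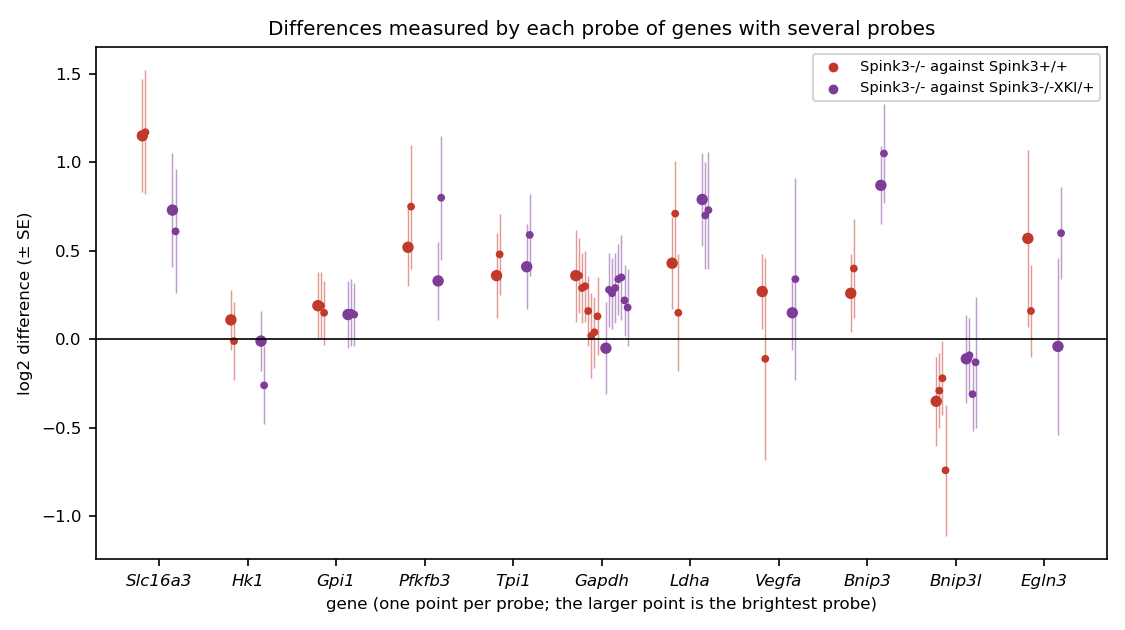
Log2 difference, with bars of 1 SE, measured by each probe of the 11 genes with several tested probes, for Spink3-/- against Spink3+/+ (red) and against Spink3-/-XKI/+ (purple). The Ldha and Bnip3 probes lie together at 0.70 to 1.05 in purple, the brightest Gapdh probe lies at -0.05 below the other 7, and the 4 Bnip3l probes lie below 0.

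Over all 53 tested probes of the members, 32 had Spink3-/- wholly above Spink3-/-XKI/+ and 3 wholly below. Against Spink3+/+ the counts were 20 and 5. The share over all tested probes was not computed, so nothing is read from these counts. The probes are not separate measurements either: Gapdh has 8 of them, and those of Slc16a3 share a run of 53 bases.

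The mitochondrial members split. Bnip3, a mitochondrial outer membrane protein that directs mitochondria to autophagy, stood at 3.35 and 3.02 in Spink3+/+, 3.29 and 3.60 in Spink3-/-, and 2.70 and 2.44 in Spink3-/-XKI/+. Spink3-/-XKI/+ was lowest and overlapped with neither other genotype, which overlapped with each other. Spink3-/- differed from Spink3-/-XKI/+ by 0.87 (SE 0.22, 1.83-fold, 95% interval 0.35 to 1.40; limma unadjusted p = 0.00642, adjusted p = 0.521), and Spink3-/-XKI/+ differed from Spink3+/+ by -0.61 (SE 0.22). A second probe gave 1.05 and -0.65. Higd1a, a small protein of the inner mitochondrial membrane, stood at 1.57 and 2.02 in Spink3+/+, 2.26 and 1.99 in Spink3-/-, and 1.45 and 1.44 in Spink3-/-XKI/+. It had the order of Bnip3, with Spink3-/-XKI/+ below both others and a difference of 0.68 (SE 0.22) between Spink3-/- and Spink3-/-XKI/+.

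Bnip3l, the close relative of Bnip3 that clears mitochondria from maturing red cells, was lower in Spink3-/- than in Spink3+/+ at each of its 4 probes, by log2 differences from -0.74 to -0.22, and its brightest probe gave -0.35 (SE 0.25). The summed level of 7 measured erythroid markers ran from 415 to 860 in Spink3+/+, 435 to 458 in Spink3-/- and 309 to 330 in Spink3-/-XKI/+; their part in the result was not tested.

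Car9, a carbonic anhydrase at the cell surface that handles acid from glycolysis, stood at 0.37 and 1.16 in Spink3+/+, 1.18 and 1.02 in Spink3-/-, and 0.32 and 0.29 in Spink3-/-XKI/+. The Spink3-/- arrays lay well above those of Spink3-/-XKI/+, by 0.80 (SE 0.28, 1.75-fold), while the Spink3+/+ arrays were spread over the whole range. P4ha2, a collagen prolyl hydroxylase, stood at 2.25 and 2.49 in Spink3+/+, 2.50 and 2.49 in Spink3-/-, and 1.88 and 2.09 in Spink3-/-XKI/+. Here too Spink3-/-XKI/+ was lowest, 0.51 (SE 0.18) below Spink3-/- and without overlap. P4ha1, its partner isoform, was near background and differed by 0.21 (SE 0.35), with 1 Spink3+/+ array below background.

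Ddit4, an inhibitor of mTORC1 induced by hypoxia and other stresses, was higher in Spink3-/- than in the other genotypes. It stood at 4.63 and 4.18 in Spink3+/+, 5.28 and 4.97 in Spink3-/-, and 4.70 and 4.80 in Spink3-/-XKI/+. No genotypes overlapped, and Spink3-/-XKI/+ lay between the others. Spink3-/- was higher than Spink3+/+ by 0.72 (SE 0.22, 1.65-fold, 95% interval 0.18 to 1.26), and Spink3-/-XKI/+ was higher than Spink3+/+ by 0.35 (SE 0.22).

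Vegfa, the secreted growth factor for endothelial cells, stood at 2.70 and 2.91 in Spink3+/+, 2.99 and 3.17 in Spink3-/-, and 2.74 and 3.11 in Spink3-/-XKI/+. Spink3-/- lay above Spink3+/+ by 0.27 (SE 0.20), and a second probe with widely spread arrays gave -0.11. The summed level of 12 endothelial markers ran from 287 to 297 in Spink3+/+, 253 to 353 in Spink3-/- and 306 to 332 in Spink3-/-XKI/+. But 10 of these 12 had a lower mean in Spink3-/- than in Spink3+/+ (median -0.34), 8 without overlap, beside 16.6% of all genes. In Spink3-/-XKI/+, 11 of the 12 had a lower mean than in Spink3+/+ (median -0.16), 7 without overlap, beside 16.2%. Their part in the result was not tested. Ndrg1, a hypoxia-induced stress protein, stood at 4.05 and 3.06 in Spink3+/+, 3.78 and 3.85 in Spink3-/-, and 3.65 and 2.70 in Spink3-/-XKI/+. In each of the other genotypes the arrays lay far apart, and Spink3-/- lay above Spink3-/-XKI/+ by 0.64 (SE 0.42).

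Of the oxygen sensors, Egln3 stood at -0.33 and -0.25 in Spink3+/+, 0.08 and 0.47 in Spink3-/-, and -0.48 and 1.11 in Spink3-/-XKI/+. Spink3-/- lay above Spink3+/+ by 0.57 (SE 0.49), but the Spink3-/-XKI/+ arrays stood at both ends of the range. A second probe gave 0.16, and on it both Spink3-/-XKI/+ arrays were lowest, at -1.09 and -1.42. There Spink3-/-XKI/+ differed from Spink3+/+ by -0.44, where the brightest probe gave 0.60, and Spink3-/- differed from Spink3-/-XKI/+ by 0.60, where the brightest gave -0.04. Egln1, the main prolyl hydroxylase of hypoxia-inducible factors, was above background on 1 array, Spink3-/-XKI/+ replicate 1, and stood at -3.76 and -4.15 in Spink3+/+, -3.63 and -3.39 in Spink3-/-, and -1.36 and -3.39 in Spink3-/-XKI/+.

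Hif1a was not well above background on both arrays of any genotype. Its brighter probe stood at -3.17 and -2.14 in Spink3+/+, -2.09 and -3.75 in Spink3-/-, and -2.52 and -3.13 in Spink3-/-XKI/+, and was above background on 1 array of each genotype. These values lie near the lowest level counted as above background, which ran from -3.01 to -2.13 over the arrays. Adm, Ero1l and Mxi1 were above background on 2 arrays each, 1 of Spink3+/+ and 1 of Spink3-/-XKI/+. Ankrd37, a member tested near background, differed by -0.87 (SE 0.54) between Spink3-/- and Spink3+/+, with 1 Spink3-/- array below background, and the histone demethylase Kdm3a, above background on all arrays, differed by -0.41 (SE 0.32).

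Further genes of the same routes, from lists made for comparison, had medians close to those of all genes. Of 33 other genes of glycolysis and pyruvate use, 26 were tested and 0 were called by limma in any comparison; the medians were 0.04 for Spink3-/- against Spink3+/+, -0.03 for Spink3-/-XKI/+ against Spink3+/+ and 0.03 for Spink3-/- against Spink3-/-XKI/+. At an unadjusted limma p under 0.05 there were 2, 3 and 3 genes. Of 41 other hypoxia response genes, 37 were tested and 0 were called, with medians of 0.02, -0.01 and 0.02, and with 1, 0 and 1 genes at an unadjusted limma p under 0.05. In the first list Slc2a4, the insulin-responsive glucose carrier of muscle and fat, differed from Spink3+/+ by 0.87 in Spink3-/- and by 1.55 in Spink3-/-XKI/+. In the second list Ppp1r3c, which targets a phosphatase to glycogen, differed by -1.55 between Spink3-/- and Spink3+/+, with widely spread Spink3+/+ arrays.

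Markers of a neighbouring tissue stood on the same side as the members. Of 13 liver genes, 12 were tested; 12 of 12 had a higher mean in Spink3-/- than in Spink3+/+, and 11 without overlap, with a median log2 difference of 1.74. Against Spink3-/-XKI/+, 11 of 12 had a higher mean in Spink3-/-, with a median of 1.53. There 9 lay above without overlap, beside 13.1% of all genes. Limma called none of the liver genes. Their summed level ran from 90.6 to 91.8 in Spink3+/+, from 124 to 142 in Spink3-/- and from 95 to 102 in Spink3-/-XKI/+, and their defining genes Alb and Apoa1 were above background on all arrays. The summed level of 11 macrophage markers ran from 48.1 to 54.1, from 60.5 to 60.9 and from 64.9 to 82.3 in the same order. That of 14 digestive enzyme genes ran from 18300 to 20900, from 16500 to 21800 and from 19200 to 19900, a sum that follows the brightest genes. Of the 14, 9 had a lower mean in Spink3-/- than in Spink3+/+. There 5 lay wholly below, beside 16.6% of genes, and 0 wholly above, with a median of -0.1 (from -1.41 to 0.07). Against Spink3-/-XKI/+, 10 of 14 were lower, with 4 wholly below, beside 21.5%, and 1 wholly above. The median there was -0.02 (from -2.5 to 0.42), and limma called none in either. The part of these tissues and cells in the members' differences was not tested.

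**Figure D5:**
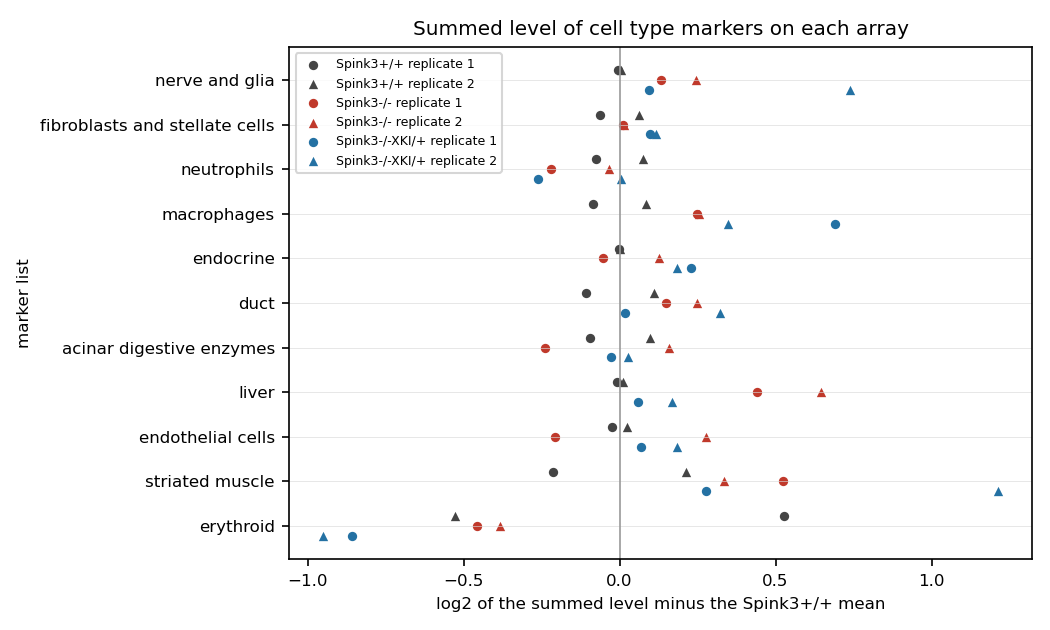
Log2 of the summed level of each marker list on each array, relative to the mean of the Spink3+/+ arrays. The liver list lies to the right of 0 on both Spink3-/- arrays, and the erythroid list lies lowest on both Spink3-/-XKI/+ arrays. The acinar enzyme list lies around 0 in all genotypes, a sum that follows its brightest genes.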

How the data were processed

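Per the file headers and the submitters' processing notes, the deposited intensity values are background-subtracted signals on a linear scale, made with Agilent Feature Extraction 10.7.3.1; the arrays were not scaled to each other. The value file deposited for the series held the same intensity on every spot, uncentred and without ratios (array medians 15.2 to 19.9). Saturated, outlier and background flags are from the deposited files.

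Of 59305 spots that are not controls, outliers were left out and spots of a probe averaged. The log2 signal minus the array's 75th percentile was taken. A probe was kept where some genotype had it well above background on both of its arrays, and the brightest probe stood for a gene. Genotypes came from the labels. Comparisons were made in limma 3.58.1 under R 4.3.3 (package data.table, version 1.17.8; figures in matplotlib 3.10.9, Python 3.11.15), two-sided, on all 6 arrays with 3 residual degrees of freedom, and adjusted by Benjamini-Hochberg over 14029 genes; the calculation was tested on simulated data. Probe names were updated through RefSeq (26702 by accession, 3816 by symbol and 639 by older symbol; 1711 kept the file's name and 22750 had none), and the members' 63 probes were matched by the name in the file.

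Every member is named. Values per array are given for members with a difference of 0.5 or more and no overlap, and for Hif1a, Egln1, Vegfa, Slc2a1, Gapdh, Pgk1 and Ldha; other genes named were chosen after their values were seen, apart from those of the comparison lists, where the rule named the 2 genes with the largest differences and 1 of each list is not reported here. The members and lists were chosen with earlier results of these data known. Alternatives covered scaling, background, filter, probe choice, samples, blocks and each array left out.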

Additional observations from a re-analysis of the deposited data

How the results depend on the processing

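No member was called under any alternative run, and the medians of the members of glucose use against Spink3-/-XKI/+ stayed between 0.25 and 0.33. That of the other hypoxia targets, 0.29, was 0.15 without a filter on dim probes, 0.44 with probes above background on all 6 arrays, and 0.23 to 0.44 with an array left out (0.44 without Spink3-/- replicate 2). The count of all genes called depended on the setting. For Spink3-/- against Spink3+/+, the 5 called genes became 1 with normexp, without a filter and with probes above background on all 6 arrays. The same count of 1 came with 2 genotypes only and with slide row as a block. It was 2 with the mean of a gene's probes or a mean-variance trend. With quantile normalization or median centring it was 7, and with spike-in centring 6. With each probe tested, 11 probes were called. For Spink3-/- against Spink3-/-XKI/+, 1 became 0 with normexp, without a filter, with all 6 arrays above background, with 2 genotypes only and with a trend. It became 3 with median centring, spike-in centring or slide row, and 4 with quantile normalization. With each probe tested, 0 probes were called. For Spink3-/-XKI/+ against Spink3+/+, 1 became 2 with normexp or a trend, 3 with quantile normalization and 0 with slide row. With each probe tested, 2 probes were called. The cause was not tested. Leaving out 1 array at a time gave 1 to 6, 0 to 3 and 1 to 2 calls. With an array left out, the remaining sample of its genotype is assumed to vary like the others, and the genes tested were kept.

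The median of the other hypoxia targets in Spink3-/-XKI/+ against Spink3+/+, -0.29 in the report, was -0.02 with slide row as a block and ran from -0.41 to -0.06 with an array left out (-0.07 without Spink3+/+ replicate 1 and -0.06 without Spink3-/-XKI/+ replicate 2). That of Spink3-/- against Spink3+/+ ran from 0.10 to 0.31, lowest without Spink3+/+ replicate 1, where the glucose use members had 0.13 to 0.44 over the arrays left out. Single differences changed sign for Car9 in Spink3-/- against Spink3+/+ without Spink3+/+ replicate 1 (-0.05 to 0.73 over the arrays left out). In Spink3-/-XKI/+ against Spink3+/+ they did so for Egln3 without Spink3-/-XKI/+ replicate 2 (-0.19 to 1.39), Gapdh with the mean of its probes (-0.02) or slide row (-0.24), and Kdm3a with slide row (0.10). A change of sign is counted only where the difference exceeded its SE.

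The labels number the replicates alike in each genotype, but deviations of same-numbered arrays correlated at -0.06, 0.03 and 0.20, so the numbers were not taken as pairing. With the replicate block, 1 gene was called in Spink3-/- against Spink3+/+, 0 in Spink3-/- against Spink3-/-XKI/+ and 1 in Spink3-/-XKI/+ against Spink3+/+, and 0 members in each.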
